A study of Mus musculus with 55 samples.

Results

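The DNA damage repair genes described here are the genes whose symbol matches a fixed list of repair families (Fanconi anaemia, Brca, Rad, Xrcc, Chek, Ercc, Neil, Parp and others) in the deposited liver RNA-seq tables. No measured value chose them beyond their being listed by the authors. They are 20 of the 4113 genes in the tables. Of these, 19 are listed for mice labelled Setd8-LKO given TCPOBOP against untreated wild type, among 3900 genes. For wild type mice given TCPOBOP against untreated wild type, 4 are listed among 719 genes. Chek1, Rad51ap1 and Rad51b are in both tables, and Ercc3 is the member listed only for wild type mice. The match also brings in 4 genes outside DNA repair in the strict sense. These are Eid2, a transcriptional inhibitor, Ercc6l, a helicase of mitotic chromosomes, Esco2, which acetylates cohesin, and Parp8, a PARP family member that is not among the break sensors.

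RNA was sequenced from whole liver of male C57Bl6 mice aged 45 to 50 days. The groups were 5 wild type mice labelled untreated, 5 wild type mice at 24 h after 3 mg/kg of TCPOBOP, and 4 Setd8lox/lox-AlbCre mice at 24 h after the same dose. TCPOBOP activates the nuclear receptor CAR and drives quiescent hepatocytes into the cell cycle. Setd8 (gene symbol Kmt5a) monomethylates histone H4 at lysine 20. The floxed allele is removed by a Cre recombinase under the albumin promoter, which acts in hepatocytes, while other cells of the liver keep the gene. No library of untreated Setd8-LKO liver was analysed here, and genotype and treatment change together between the Setd8-LKO libraries and the untreated ones. The study's methods name an injection of corn oil as the vehicle, while the labels of the control libraries read untreated.

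Cells repair broken or blocked DNA through several connected pathways. ATR and CHK1 signal stalled replication forks, the Fanconi anaemia proteins act on forks held up by crosslinks, and BRCA1, BARD1 and their partners copy the missing sequence from the sister DNA by homologous recombination. Nucleases and helicases then trim and separate the joined molecules. Most of these genes are transcribed around S and G2 phase, under E2F factors and the DREAM and MuvB complexes that bind CHR elements, and adult hepatocytes at rest hold little of their RNA. The study looked for replication stress and DNA breaks in Setd8-LKO hepatocytes given TCPOBOP, and the comparisons here give the RNA levels of the repair genes in the same setting.

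The start regions of 6 members are shown first because the values below turn on these genes, and because the elements bound by the cell cycle factors are short enough to be read in them. RefSeq promoter windows on GRCm38.p6 (250 bases before the start and 50 after it) were at hand for 12 of the 20 members. The 250 bases before the start are printed 5′ to 3′ on the strand of the gene. Distances are from the RefSeq start, and GENCODE places the gene's outermost start further upstream for Chek1 (chr9:36727065) and Bard1 (chr1:71103146). The printed bases of Chek1 thus lie inside the gene as GENCODE annotates it, and those of Bard1 lie partly inside it. Capitals mark an E2F site (TTTCCCGC, TTTCGCGC, TTTGCCGC or TTTGGCGC), a CHR element (TTTGAA, or the palindromic form given below), a CCAAT box (the letters of its name) or, in Chek1, an interferon-stimulated response element, each on either strand.
Bard1, chr1:71102973-71103222, minus strand: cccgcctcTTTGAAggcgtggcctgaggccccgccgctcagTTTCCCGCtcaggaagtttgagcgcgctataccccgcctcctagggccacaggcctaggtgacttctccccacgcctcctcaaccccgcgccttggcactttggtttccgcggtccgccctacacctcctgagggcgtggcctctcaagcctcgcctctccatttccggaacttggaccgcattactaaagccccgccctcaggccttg
Atr, chr9:95857347-95857596, plus strand: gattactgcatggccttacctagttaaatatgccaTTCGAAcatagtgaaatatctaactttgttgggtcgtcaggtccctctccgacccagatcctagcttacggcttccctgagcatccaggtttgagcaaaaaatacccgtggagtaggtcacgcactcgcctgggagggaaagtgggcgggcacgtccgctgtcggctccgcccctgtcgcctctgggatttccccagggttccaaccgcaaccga
Neil3, chr8:53639066-53639315, minus strand: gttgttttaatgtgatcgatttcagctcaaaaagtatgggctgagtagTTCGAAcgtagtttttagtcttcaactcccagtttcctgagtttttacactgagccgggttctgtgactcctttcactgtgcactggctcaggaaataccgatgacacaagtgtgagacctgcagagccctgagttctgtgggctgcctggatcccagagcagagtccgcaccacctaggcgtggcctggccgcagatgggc
Rad51ap1, chr6:126939588-126939837, minus strand: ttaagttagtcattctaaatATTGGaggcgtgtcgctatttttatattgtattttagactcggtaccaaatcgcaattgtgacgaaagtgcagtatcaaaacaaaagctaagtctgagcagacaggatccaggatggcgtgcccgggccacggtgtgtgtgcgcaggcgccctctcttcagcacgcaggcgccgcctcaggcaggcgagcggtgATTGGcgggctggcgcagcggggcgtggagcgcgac
Brca1, chr11:101551956-101552205, minus strand: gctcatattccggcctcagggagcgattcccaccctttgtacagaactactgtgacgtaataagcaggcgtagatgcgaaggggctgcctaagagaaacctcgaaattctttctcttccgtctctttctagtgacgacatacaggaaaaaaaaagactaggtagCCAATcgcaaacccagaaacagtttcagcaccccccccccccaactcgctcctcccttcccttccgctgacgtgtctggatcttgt
Chek1, chr9:36726659-36726908, minus strand: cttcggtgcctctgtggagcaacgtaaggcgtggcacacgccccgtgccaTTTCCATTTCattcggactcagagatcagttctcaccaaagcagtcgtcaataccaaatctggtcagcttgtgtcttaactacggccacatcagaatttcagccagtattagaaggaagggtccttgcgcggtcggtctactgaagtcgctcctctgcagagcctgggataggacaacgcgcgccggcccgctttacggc

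Bard1 held an E2F site 209 bases before its start and a CHR element 242 bases before it. Atr held a CHR element at 215 bases and Neil3 at 202 bases before the start, both in the palindromic form TTCGAA, which reads the same on both strands. Among the 12 members with a window, 1 had an E2F site, against 2.26% of the 32851 windows of the same length over all genes. A CHR element was in 5 of the 12 (Atr, Bard1, Gen1, Neil3 and Rad51b), against 19.2% of all windows. A CCAAT box was in 6 of the 12 (Brca1, Eid2, Fancb, Parp8, Rad51ap1 and Rad51b), against 37.4% of all windows, and Rad51ap1 carried it at 230 and again at 36 bases before the start. Chek1 was the 1 member with an interferon-stimulated response element, which 3.44% of all windows hold, and Rad18 held none of these elements. A member counted if any of its windows held the element (14 windows for the 12 members), while the shares are per window. These matches describe letters in a short window and were not set against factor binding.

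Values below are normalized counts, the authors' raw counts multiplied by 1 factor per library. The factors ran from 1.03 to 1.25 in untreated libraries, from 1.09 to 1.39 in wild type libraries given TCPOBOP and from 0.752 to 0.855 in the Setd8-LKO libraries. Raw counts over the listed genes summed per library to between 5730000 and 12800000 in the Setd8-LKO table, and member counts ran from 0 to 1042 reads per library. Libraries came from 2 sequencing runs, and only 1 Setd8-LKO library (replicate 4) is of run A. The targeted gene Kmt5a did not fall. It ran from 563 to 761 in untreated libraries and from 1310 to 1460 in those labelled Setd8-LKO (log2 fold change 1.08, standard error 0.14, edgeR adjusted p = 0.000151). Counts summed over a gene cannot show the loss of 1 exon, and the libraries are called by their label.

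All 19 members listed for the Setd8-LKO libraries passed the filter on low counts, and all 19 had higher counts there than in untreated wild type liver. By edgeR's quasi-likelihood test, with an adjusted p under 0.05 and at least a 2-fold difference, 18 of the 19 rose, all but Parp8. Among all 3726 tested genes 92.7% changed and 55.2% changed and were higher, because the authors had selected them on these same libraries, so the count of members is no independent evidence. The median log2 fold change of the 19 was 2.31, with a range from 1.02 to 3.78, against a median of 1.78 over all 2056 genes that rose. Without the 4 genes outside repair, 15 of 15 rose, with the same median. In 18 members the groups of libraries did not overlap, as in 87.4% of all tested genes of the table. For these 18, exact permutation of the libraries (two-sided) returned p = 0.0159, which is the least possible with groups of 5 and 4. That p restates the lack of overlap in genes selected on these libraries and is no independent evidence. Taking each run alone, all 19 were higher, by log2 ratios of means from 0.53 to 4.1 in A and from 1.32 to 4.94 in B. In whole liver, more cells that transcribe these genes and more RNA per cell cannot be told apart.

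**Figure D1:**
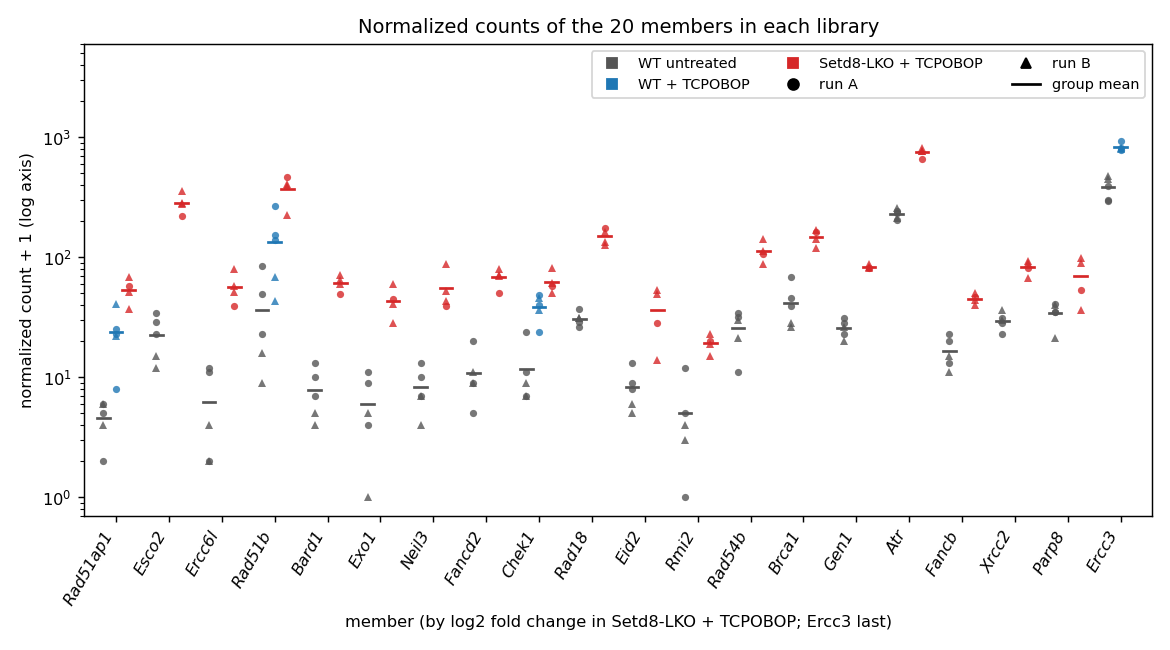
Normalized counts plus 1 of the 20 members on a log axis, with 1 point per library, colours for the 3 groups, circles for run A, triangles for run B and a bar at each group mean. The Setd8-LKO libraries lie above all untreated libraries in 18 of 19 members, and the groups overlap in Parp8.

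**Figure D2:**
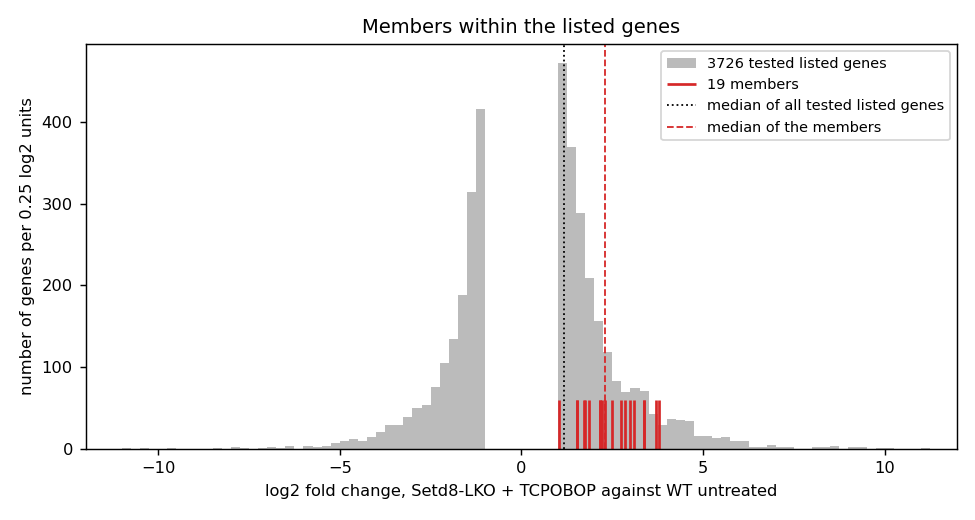
Histogram of the log2 fold changes of the 3726 tested listed genes between Setd8-LKO + TCPOBOP and untreated wild type, with the 19 members as red lines and both medians. The gap around 0 is the authors' selection, and the members lie between 1.02 and 3.78.

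Checkpoint signalling was represented by Atr and Chek1, and both rose. Atr, the kinase that senses single-stranded DNA at stalled forks, had the highest counts of the 19 members in untreated liver. It was at 256, 213, 202, 243 and 233 in the untreated libraries and at 774, 816, 767 and 658 in the Setd8-LKO ones. The groups were far apart, and the log2 fold change was 1.72 (standard error 0.14, edgeR adjusted p = 8.29e-06). With size factors computed by DESeq2 from the listed genes, which moved all genes by a median of -0.82, Atr was at 0.90 and no longer reached a 2-fold difference. Chek1, the kinase that ATR activates, was at 8, 6, 10, 6 and 23 in untreated libraries and at 60, 80, 49 and 56 in Setd8-LKO libraries. Untreated replicate 5 stood apart at 23, and the groups still did not overlap. The log2 fold change of Chek1 was 2.48 (standard error 0.38, edgeR adjusted p = 0.000517). Atr overlaps the antisense genes 1700065D16Rik and Gm16794, and whether the counts used strand is not given in the sources used here. Atm, Chek2, Atrip and Topbp1 are not listed and were not analysed here.

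Of the Fanconi anaemia genes with a Fanc symbol, Fancd2 and Fancb are listed. Fancd2, whose product is ubiquitylated at blocked forks, was at 8, 10, 8, 4 and 19 in untreated libraries and at 70, 79, 69 and 49 in Setd8-LKO libraries. Every Setd8-LKO library exceeded every untreated one, by a log2 fold change of 2.74 (standard error 0.36, edgeR adjusted p = 0.000169). Fancd2 overlaps Fancd2os and Gm44232 on the opposite strand, so the same doubt about strand holds for its counts as for Atr. Fancb, an X-linked subunit of the core complex that ubiquitylates FANCD2, was at 10, 14, 22, 12 and 19 and at 39, 49, 43 and 46. Its log2 fold change of 1.53 (standard error 0.27, edgeR adjusted p = 0.00125) was smaller than that of Fancd2, a difference that was not tested. Fancb lost its call with the DESeq2 size factors (log2 fold change 0.73, edgeR adjusted p = 0.139).

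Homologous recombination had the most members. Bard1, Brca1, Rad51ap1, Rad51b, Rad54b and Xrcc2 are listed, all 6 rose, and their median log2 fold change was 2.63. Rad51ap1, which stimulates strand invasion, rose most of the 19 members. It was almost silent in untreated liver, at 3, 5, 5, 1 and 4, and reached 50, 67, 36 and 57 in the Setd8-LKO libraries. Its means were 3.6 ± 1.67 (SD, n = 5) and 52.5 ± 13.0 (SD, n = 4), a log2 fold change of 3.78 (standard error 0.37, edgeR adjusted p = 2.52e-05). Only 17 raw reads in 5 untreated libraries stand behind the lower mean.

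Bard1, the partner of BRCA1 in its ubiquitin ligase, was at 4, 3, 12, 6 and 9 in untreated libraries and at 63, 70, 59 and 48 in Setd8-LKO libraries. Its promoter is the one above with both an E2F site and a CHR element, and its log2 fold change was 3.09 (standard error 0.36, edgeR adjusted p = 8.16e-05). Brca1 itself had more counts in untreated liver, at 27, 25, 67, 45 and 38, and rose to 141, 169, 119 and 160. Its log2 fold change was 1.86 (standard error 0.29, edgeR adjusted p = 0.000597). The 3 untreated libraries of run A (67, 45 and 38) were above those of run B (27 and 25) for Brca1, and the Setd8-LKO libraries were above both.

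Rad51b, which acts in strand exchange, differed between runs as well as between groups. Untreated libraries of run A were at 48, 84 and 22 and those of run B at 8 and 15, while the Setd8-LKO libraries were at 389, 408 and 224 in run B and 465 in run A. The log2 fold change was 3.37 (standard error 0.55, edgeR adjusted p = 0.000802), and the log2 ratio of means was 3.18 among libraries of run A and 4.89 among those of B. The annotated gene spans 517.4 kb, far more than its 3.76 kb of exons, and whether reads in introns were counted is not given in the sources used here. Rad54b, a DNA translocase of the same pathway, went from a mean of 24.6 ± 9.56 (SD, n = 5) to 111 ± 22.9 (SD, n = 4). Xrcc2, which also acts in strand exchange, went from 28.6 ± 4.72 (SD, n = 5) to 81.8 ± 11.7 (SD, n = 4). Their log2 fold changes were 2.17 (standard error 0.31) and 1.53 (standard error 0.21), with edgeR adjusted p of 0.00035 and 0.00028. Xrcc2 lost its call with the DESeq2 size factors (log2 fold change 0.72, edgeR adjusted p = 0.132). The counts of Rad54b could hold reads of Fsbp, which overlaps it on the same strand. Brca2 is not listed and was not analysed here.

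The enzymes that trim and separate joined DNA were Exo1, Gen1 and Rmi2, and all 3 rose. Exo1, an exonuclease that resects broken ends, was at 4, 0, 10, 3 and 8 in untreated libraries and at 40, 59, 27 and 44 in Setd8-LKO libraries, a log2 fold change of 3.00 (standard error 0.52, edgeR adjusted p = 0.00118). Gen1, a resolvase of Holliday junctions, was the steadiest member in the Setd8-LKO libraries, at 80, 86, 82 and 81 (82.2 ± 2.63, SD, n = 4) against 19, 25, 27, 22 and 30 in untreated ones. Its log2 fold change was 1.75 (standard error 0.2, edgeR adjusted p = 8.01e-05), and with the DESeq2 size factors it was 0.94, under a 2-fold difference. Rmi2, a subunit of the BLM dissolvasome, had the fewest counts of the 19 members in the Setd8-LKO libraries, at 2, 3, 4, 0 and 11 against 18, 22, 14 and 19. It passed with the least margin of the 18 members that rose (log2 fold change 2.17, standard error 0.57, edgeR adjusted p = 0.0171), and its adjusted p was 0.0538 without Setd8-LKO replicate 2 and 0.196 with the DESeq2 size factors. Replicate 2 had the highest count in 16 of the 19 members.

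Neil3, a DNA glycosylase that also unhooks crosslinks at replication forks, was at 6, 3, 9, 6 and 12 in untreated libraries and at 42, 86, 51 and 38 in Setd8-LKO libraries. It rose by 2.86 on the log2 scale (standard error 0.4, edgeR adjusted p = 0.000259), and replicate 2 alone held the upper end of its spread. Rad18, the ubiquitin ligase that lets replication pass damaged bases, was even among the untreated libraries, at 30, 30, 36, 28 and 25, and at 134, 160, 126 and 173 in Setd8-LKO ones. Its log2 fold change was 2.31 (standard error 0.2, edgeR adjusted p = 1.11e-05), close to the same size in run A (2.54) and run B (2.22). 

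Among the 4 matches outside repair, Esco2 rose most. It was at 14, 11, 28, 22 and 33 in untreated libraries and at 278, 356, 281 and 221 in Setd8-LKO libraries (log2 fold change 3.71, standard error 0.31, edgeR adjusted p = 1.08e-05). Ercc6l was at 1, 3, 10, 1 and 11 and at 50, 78, 56 and 38, and Eid2 at 4, 5, 12, 8 and 7 and at 48, 52, 13 and 27. The lowest Eid2 value of the Setd8-LKO libraries, 13 in replicate 3, is next to the highest untreated value, 12. Parp8 is the exception. It was at 39, 20, 40, 34 and 34 in untreated libraries and at 98, 88, 35 and 52 in Setd8-LKO libraries, so the groups overlap at replicate 3. Its log2 fold change of 1.02 (standard error 0.33) had an edgeR adjusted p of 0.0576, with adjusted p from 0.0101 to 1 under the alternatives.

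In wild type liver, TCPOBOP alone was listed with a change in 4 members, and 3 of them passed the filter. Of these 3, Ercc3 and Chek1 rose and Rad51b did not pass the test. Among all 679 tested genes 78.8% changed and 58.2% changed and were higher, again because they were selected on these libraries. Ercc3, the XPB helicase of the transcription factor TFIIH that opens DNA in nucleotide excision repair, was at 450, 472, 301, 394 and 292 in untreated libraries and at 934, 817, 784, 794 and 813 after TCPOBOP. Every treated library was above every untreated one, as in 82% of the tested genes of this table, and the log2 fold change was 1.12 (standard error 0.18, edgeR adjusted p = 0.00324). Exact permutation (two-sided) returned p = 0.00794 for Ercc3, which is the least possible with 2 groups of 5. That p follows from the lack of overlap in a gene selected on these libraries and is no independent evidence. Scaled over the listed genes, most of which were higher, its log2 fold change was -0.055 with DESeq2's size factors and -0.14 with TMM. These scalings moved all genes of the table by medians of -1.17 and -1.25, about the size of the change in Ercc3.

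Chek1 reached 47, 23, 39, 45 and 35 after TCPOBOP, and replicate 2 of the treated libraries equals replicate 5 of the untreated ones at 23. Its log2 fold change was 1.77 (standard error 0.38, edgeR adjusted p = 0.0258), and the call was lost without any 1 of 8 of the 10 libraries (adjusted p from 0.0584 to 0.0808). Rad51b was at 138, 266 and 153 in run A and at 42 and 68 in run B. The treated libraries were higher within both runs, by log2 ratios of 1.85 and 2.26, but the groups overlap across runs and the log2 fold change of 1.89 (standard error 0.64) had an edgeR adjusted p of 0.343. A model that also held the sequencing run gave a log2 fold change of 1.97, with an edgeR adjusted p of 0.0134. Rad51ap1 was at 22, 7, 24, 40 and 21 against 1 to 5 in untreated libraries. It did not pass the filter on low counts. Its groups did not overlap, as in 82% of the tested genes of this comparison. Exact permutation (two-sided) returned p = 0.00794, the value that any gene without overlap has here. The authors listed Rad51ap1 on these same libraries, so this p is no independent evidence. The other 16 members of the Setd8-LKO table are not listed for wild type mice given TCPOBOP, so their level in those libraries was not analysed here.

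Chek1, Rad51ap1 and Rad51b were compared between genotypes at the same dose and time. The untreated libraries hold identical values in both tables, and the factors were taken as shared on that ground. The treated groups stand in different tables, and whether their factors are on a common scale was not tested. The 506 genes in both tables were refitted with the 4 Setd8-LKO and 5 wild type libraries given TCPOBOP. Of the 494 genes tested, 32.2% changed and 11.9% changed and were higher. All 3 members had higher means in the Setd8-LKO libraries, and 0 of 3 counted as changed by edgeR, DESeq2 or limma-voom, although all 3 had an unadjusted p under 0.05 by edgeR, as did 312 of the 494 genes tested. Rad51b had a mean of 133 ± 87.5 (SD, n = 5) in wild type and 372 ± 104 (SD, n = 4) in Setd8-LKO libraries, a log2 fold change of 1.47 (standard error 0.45, edgeR adjusted p = 0.604). The genotypes are spread unevenly over the runs, and in a model that also held the run Rad51b counted as changed (log2 fold change 2.12, edgeR adjusted p = 0.0323). Rad51ap1 had means of 22.8 ± 11.7 (SD, n = 5) and 52.5 ± 13.0 (SD, n = 4), a log2 fold change of 1.21 (standard error 0.4, edgeR adjusted p = 0.831). Chek1 had means of 37.8 ± 9.55 (SD, n = 5) and 61.2 ± 13.3 (SD, n = 4), a log2 fold change of 0.71 (standard error 0.26, edgeR adjusted p = 1). The libraries of Chek1 did not overlap between genotypes, as for 50.6% of the tested genes. Adjusted over the 494 genes in place of all 18512 genes of the authors' test, Rad51b (0.0161) and Rad51ap1 (0.0222) counted as changed.

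**Figure D3:**
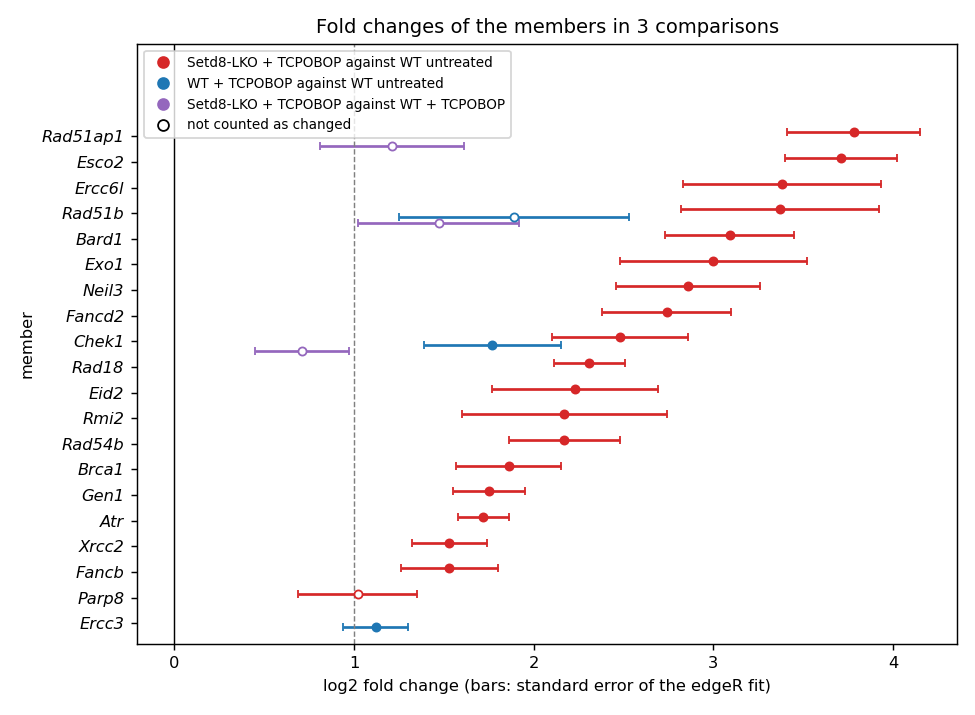
Log2 fold changes of the members with their standard errors in 3 comparisons, where filled points counted as changed and the dashed line is a 2-fold difference. For Rad51b and Chek1 the point against untreated liver lies further right for the Setd8-LKO libraries (3.37 and 2.48) than for the wild type ones (1.89 and 1.77), and all 3 points of the direct comparison are open.

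Other repair genes, from a list of 106 that the member rule does not take in, were read from the same fits. Beside untreated liver, 19 of the 106 are listed for the Setd8-LKO libraries, 17 rose and 2 fell, with a median log2 fold change of 1.31. Ticrr, which helps to start replication origins, rose most, from 2.2 ± 3.49 (SD, n = 5) to 38.5 ± 4.8 (SD, n = 4). Polq, the polymerase of microhomology-mediated end joining, rose from 4.6 ± 3.91 (SD, n = 5) to 51.8 ± 7.5 (SD, n = 4). Their log2 fold changes were 4.08 and 3.46, with edgeR adjusted p of 0.000864 and 0.000437. The 2 that fell were Apex2, an endonuclease of base excision repair, and Pms1, a mismatch repair protein. Apex2 fell from 2570 ± 544 (SD, n = 5) to 444 ± 141 (SD, n = 4), a log2 fold change of -2.53 (edgeR adjusted p = 3.9e-05), and Pms1 had -1.28 (edgeR adjusted p = 0.000578). The counts of Apex2 were close to those of the erythroid gene Alas2, at 2450 ± 548 (SD, n = 5) and 310 ± 111 (SD, n = 4). Whether the counts of Apex2 hold reads of Alas2 was not tested. For wild type mice given TCPOBOP 4 of the 106 are listed and all 4 rose (Clspn, Lig1, Pole and Faap100), with a median of 1.53. The tested genes were selected on these libraries, so most of them changed. For the Setd8-LKO libraries 92.7% of all 3726 changed and 55.2% changed and were higher, with a median of 1.16. For the wild type mice the shares were 78.8% and 58.2% of all 679, with a median of 1.34.

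The members moved beside the cell cycle genes of the same libraries. Of 22 proliferation genes 18 are listed in the Setd8-LKO table and 18 of 18 rose, with a median log2 fold change of 2.97. Their summed normalized counts ran from 574 to 968 in untreated libraries and from 4960 to 6570 in Setd8-LKO ones. Ccnb1 (5.80) and Plk1 (4.60) rose most, and Ccne1 (1.39) and Mcm4 (1.76) least. Selected on these libraries, 92.7% of all 3726 tested genes changed and 55.2% changed and were higher. For wild type mice given TCPOBOP 8 of the 22 are listed, 7 were tested and 5 rose, Mcm5 (2.14), Mcm2 (2.04), Mcm6, Mcm3 and Birc5, with a median of 1.66 over the 7. There, 78.8% of all 679 tested genes changed and 58.2% changed and were higher. Of 26 interferon-induced genes 3 are listed in the Setd8-LKO table and all 3 rose, Rsad2 (2.56), Usp18 (1.53) and Oas1a (1.24), and none is listed for wild type mice given TCPOBOP. The part of proliferation in the counts of the repair genes was not tested.

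Markers of the liver's cell types shifted in the same libraries. Genes are listed because they differed between the groups, and 92.7% of all 3726 tested genes changed. A count of listed markers therefore does not identify the tissue. Alb ran from 631000 to 1230000 in untreated libraries and from 302000 to 438000 in Setd8-LKO ones. It is among the 7 of 10 hepatocyte markers that are listed, and none of the 7 is at 0 in any library. Of these 7, 6 fell and Tat did not pass the test, and their summed normalized counts ran from 1190000 to 1980000 in untreated libraries and from 485000 to 695000 in Setd8-LKO libraries. All 6 cholangiocyte markers are listed, 5 were tested and 4 rose (Epcam, Krt7, Sox9 and Spp1), with sums from 427 to 690 and from 1630 to 7470. Both listed stellate cell markers rose, Col1a1 and Pdgfrb, with sums from 182 to 466 and from 820 to 2420. The macrophage marker Marco rose, the erythroid marker Alas2 fell, the neutrophil markers S100a8 and S100a9 did not pass the test, and no endothelial marker is listed. For wild type mice given TCPOBOP, Ass1 and Lrat fell and Marco did not pass the test. The part of these cell types in the members' counts was not tested.

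Chromatin at the members was read from 1 peak list per condition for untreated wild type and Setd8-LKO liver given TCPOBOP, so no difference between the lists could be tested. A peak was counted within 1000 bp of an annotated transcript start. Accessible chromatin by ATAC-seq was listed at 15 of the 20 members in wild type liver and at 15 in Setd8-LKO liver, of which 14 were the same, against 44.7% and 38.2% of all 4101 listed genes with an annotation. H3K27ac, a mark of active promoters, was listed at 17 of 20 in both, against 60.9% and 64.4% of all listed genes. Neil3 was the member with no H3K27ac peak in either list, and Esco2 and Rad51b had one in Setd8-LKO liver only. Ercc6l and Fancb, the X-linked members, had one in wild type liver only. Among all listed genes on the X chromosome 7.63% lost their peak, against 2.36% of the other listed genes.

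Where both lists held an H3K27ac peak, the fold enrichment over local background was higher in Setd8-LKO liver at 11 of 15 members, with a median log2 ratio of 0.35. It was 0.12 over all 2395 listed genes with a peak in both lists and 0.44 over the 1179 that rose, so the members' ratio is not above that of other genes that rose. Rad54b (9.50 to 25.5), Bard1 (12.0 to 28.2) and Chek1 (5.58 to 13.0) gained most, and Fancd2 (53.7 to 28.8) lost most. The Bard1 peak in Setd8-LKO liver lay at chr1:71102311-71103090, over the RefSeq start and the last bases of the stretch printed above.

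In wild type liver Smc3, a subunit of the cohesin ring, was listed at 0 of 20 members. In Setd8-LKO liver it was listed at 16 of 20, all but Brca1, Ercc3, Ercc6l and Rad51b. Over all listed genes the shares were 19.5% in wild type and 58% in Setd8-LKO liver. Over those that rose they were 18.1% and 64.9%. The list itself grew from 13045 to 21615 peaks, and 40.4% of all listed genes and 48.3% of those that rose gained an Smc3 peak at the start. The highest Smc3 fold enrichments of members were at Gen1 (83.0), Xrcc2 (79.8) and Parp8 (74.9), and the lowest at Exo1 and Fancb (12.1 each). Fold enrichments of Smc3 were higher in Setd8-LKO liver across the lists. They were higher at 97.1% of the 722 listed genes with a peak in both lists, with a median log2 ratio of 2.66. At Rad51ap1 the Smc3 peak spanned chr6:126939247-126939845, over all of the bases printed above. At Atr it spanned chr9:95857417-95858294, over part of them. CTCF was listed at 0 of 20 members in wild type and at 7 of 20 in Setd8-LKO liver. Those 7 (Bard1, Esco2, Gen1, Parp8, Rad51ap1, Rad54b and Xrcc2) all had an Smc3 peak too. Over all listed genes the CTCF shares were 6.97% in wild type and 42% in Setd8-LKO liver. The members' share of 35% is close to the 35.5% of all listed genes that gained a CTCF peak. The CTCF list grew from 5838 to 20905 peaks. Where both lists held a CTCF peak, its fold enrichment was higher in Setd8-LKO liver at 93.6% of 267 listed genes (median log2 ratio 2.23). The paper reports weaker binding at new CTCF and Smc3 sites and estimates that these associations are probably unstable and without function.

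**Figure D4:**
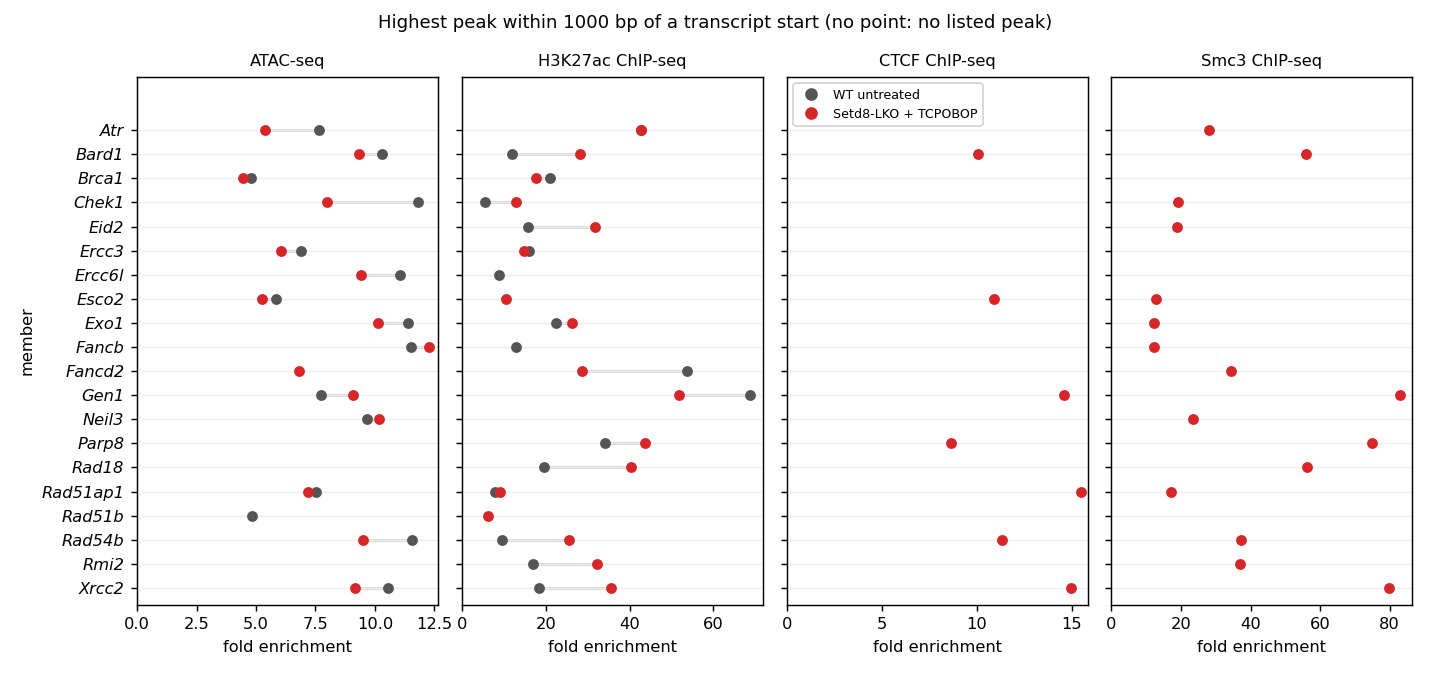
Fold enrichment over local background of the highest peak within 1000 bp of a transcript start of each member, with grey points for untreated wild type and red for Setd8-LKO + TCPOBOP, joined where both are listed. Smc3 and CTCF have red points only, at 16 and 7 members, while ATAC-seq and H3K27ac have mostly pairs. Over all listed genes, 58% had an Smc3 peak and 42% a CTCF peak in Setd8-LKO liver.

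Lamin A/C islands, broad stretches at the nuclear lamina, overlapped the gene bodies of Exo1, Neil3 and Parp8 in both lists, and an H4K20me3 island overlapped Parp8 in both. These are 15% of the members for Lamin A/C, against 7.36% of all listed genes in wild type and 5.75% in Setd8-LKO liver, and 5% for H4K20me3, against 4.88% and 6.24%. Neil3 lay inside an island of chr8:49100001-54120000 in wild type and chr8:49180001-54060000 in Setd8-LKO liver. Exo1 and Neil3 thus rose with their genes in a listed island under both conditions, and Parp8, the member that did not pass the test, had both kinds of island. Island scores were lower in Setd8-LKO liver at all 3, 2413 and 698 at Exo1, 10324 and 5380 at Neil3, and 7673 and 2297 at Parp8, with 1 list per condition. The islands also differed in extent between the lists. Scores over all islands were not compared, so a shift of the whole list was not told apart from a change at these genes.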

How the data were processed

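RNA was measured in 14 whole liver libraries. Reads had been cleaned (PRINSEQ), mapped to mm10 (HISAT2) and analysed with metaseqR by the authors. The deposited tables hold raw counts and normalized counts, which are counts times 1 factor per library rounded to whole numbers (a score, not counts), for the genes that the authors selected by FDR and fold change. Their combined p-values and FDR columns were used only to derive the 18512 genes they tested. In the peak lists the authors give MACS2 fold enrichment over local background (a ratio) and −log10 p, and in the island lists a SICER score, 1 list per condition, after reducing ChIP-seq and CUT&Tag reads to the smallest sample. Fold changes and length-scaled columns of the authors, and 114 other per-library columns, were not used.

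The quasi-likelihood test of edgeR 4.0.16 (R 4.3.3) was fitted to the raw counts of all listed genes of a table, scaled by the authors' factors, after its expression filter (minimum count 10, assuming 40000000 reads per library). Adjustment was by Benjamini-Hochberg over 18512 genes, and a gene counted as changed when the adjusted p was under 0.05 and the difference reached 1 on the log2 scale in either direction. Standard errors are the log2 fold change over the root of F. Single members were put to exact two-sided permutation tests of the difference in mean normalized counts (scipy 1.17.1). The fit was tested on simulated data with 200 changed genes and the rest unchanged, a setting unlike these tables of selected genes. That test does not measure error rates in them. Alternatives were DESeq2 1.42.0, limma 3.58.1 with voom, other scalings, no filter, no minimum fold, adjustment over the tested genes, the run as a term, a replicate block and leaving out each library. Promoter windows of 500 and 2000 bp and −log10 p of at least 20 were tried for peaks. The comparison of genotypes given TCPOBOP was added after seeing the data. Transcript starts are of GENCODE M21. Labels name each library as a separate sample, and p-values measure the spread between the libraries of a group.

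Named genes were every member listed for wild type mice given TCPOBOP and, for Setd8-LKO, per role the 4 with the largest change, all lower or not changed and a fixed set of checkpoint and repair genes where listed, with the 2 highest and 2 lowest of each other list. All other members were added. The members and lists were chosen with earlier results of these data known. Some items are not reported here.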

Additional observations from a re-analysis of the deposited data

Results flagged for a closer look

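In 43 sets of libraries (1 member in 1 group of 4 or 5), 2 had a library whose distance to the others passed Dixon's 95% critical value, about the number that chance gives at 1 in 20. Chek1 was at 23.0 in untreated wild type replicate 5, against 6 to 10 in the other 4, and this library is what makes the wild type groups touch for Chek1. Ercc3 was at 934 in wild type replicate 1 given TCPOBOP, against 784 to 817 in the other 4. Without that replicate Ercc3 still counted as changed.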

How the results depend on the processing

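Of the 18 members that rose in the Setd8-LKO libraries, size factors computed by DESeq2 from the listed genes left 13 as changed, with all 19 still higher and a median of 1.49. That scaling moved all genes by a median of -0.82 (log2) and the share of higher genes among those called from 59.5% to 36.1%. Atr, Fancb, Gen1, Rmi2 and Xrcc2 lost their call with it. The other settings gave 17 to 19 changed members, and leaving out 1 library gave 17 to 19. Replicate numbers did not pair the libraries, since correlations of deviations at equal numbers ran from -0.155 to 0.07 (4 pairs) and, for wild type mice, from -0.43 to 0.11 (5 pairs). The fit with the replicate number as a block gave 17 changed members, without Eid2 (adjusted p = 0.0781). For wild type mice given TCPOBOP, 2 members changed as reported, 0 with that scaling or with TMM (shifts of -1.17 and -1.25, higher share from 73.8% to 26.6% and 25.5%), 1 with the replicate block, and 1 to 3 when 1 library was left out (1 without replicate 1, 3, 4 or 5 of the treated libraries). The log2 fold change of Ercc3 was -0.055 and -0.14 with those scalings. Between genotypes given TCPOBOP, 0 of 3 changed as reported, 2 when adjusted over the tested genes and 1 (Rad51b) with the run as a term, and 0 without any 1 library. Those scalings moved the genes by 0.24 and 0.23 and the higher share from 37.1% to 44.9% and 44%. No promoter setting moved a count of members with a peak by more than 1.5 times. The cause of these moves was not tested. At under 10 normalized counts in untreated liver, as for 8 members, the size of a fold is poorly fixed.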
